A study of Mus musculus with 12 samples.

Results

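The distribution of miRNAs between nucleus and cytoplasm was examined in LSK cells, the Lin- Sca1+ cKit+ fraction of mouse bone marrow that holds the hemopoietic stem and early progenitor cells. The miRNAs described are the 106 named assays of the array that had a cycle threshold (CT) under 30 in nuclear or cytoplasmic LSK RNA, out of 593 assays in all, 269 of which could be named. The CT is the PCR cycle at which the product of a well crosses a fixed threshold, so the more template a well holds the lower its CT, with 1 cycle for each 2-fold difference at full efficiency. The array was a TaqMan low density array, which reads each miRNA in its own well on card A or card B, with a separate reverse transcription pool for each card.

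The study covers LSK cells, promyelocytes, myelocytes and granulocytes sorted from the bone marrow of C57BL/6 mice, with no other treatment or genotype named, and has 1 nuclear, 1 cytoplasmic and 1 whole cell RNA sample per stage. Cells were split with the PARIS kit, RNA was taken up in Trizol, and the labels give 100 ng of RNA per reverse transcription. LSK cells were negative for B220, Ter119, CD3, Gr-1 and CD11b, and they are a mixed population rather than stem cells alone. With 1 sample per fraction, no value below has a replicate check or a test, and the number of mice behind a sample is not stated in the sources used here.

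The identity of the LSK samples was checked with miRNAs known for early progenitors. All 6 of them (miR-125a-5p, miR-125b-5p, miR-126-3p, miR-130a, miR-196b and miR-99b) had their lowest CT of the 4 stages in LSK cells, in cytoplasmic, nuclear and whole cell RNA alike. Their gap to the next stage was 3.23 to 6.82 cycles in cytoplasmic, 2.22 to 5.96 in nuclear and 0.80 to 5.37 in whole cell RNA (the least for miR-130a), with undetermined wells of the later stages counted at 40. miR-10b, which is also linked to stem cells but was not among the markers, went the other way in whole cell RNA, with a CT of 30.4 in LSK cells against 27.4 in granulocytes. Of the granulocyte miRNAs, miR-223 had a cytoplasmic CT of 21.8 in LSK cells against 16.8 in granulocytes, and miR-139-5p had 27.1 against 21.7. The lymphoid miR-150 had its lowest cytoplasmic CT in LSK cells (24.1, against 25.3 in myelocytes, the next stage), and the part of other cells in this value was not tested. In such bulk RNA, fewer cells of a type and less of a miRNA per cell cannot be told apart.

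A miRNA is transcribed as a long primary transcript, cut to a hairpin in the nucleus by Drosha, exported, and cut again by Dicer in the cytoplasm, where one arm of the duplex is loaded into an Argonaute protein and pairs with mRNAs through its seed, bases 2 to 8. Most mature miRNA is therefore cytoplasmic in the cells studied so far, although Argonaute proteins and some mature miRNAs are also found in nuclei. The other arm of the duplex, marked with a star in the names used here, is usually the less abundant one. A mature miRNA assay reads the processed strand and not its primary transcript.

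The miRNAs at both ends of the distribution are shown with their mature sequences from RefSeq (GRCm38.p6), written 5′ to 3′ with the seed in capitals. RefSeq sequences were matched for 84 of the 106 miRNAs. The first set holds those with a high nuclear share, and no 2 of these share a seed:
miR-706: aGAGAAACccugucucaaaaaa
miR-690: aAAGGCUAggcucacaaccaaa
miR-877*: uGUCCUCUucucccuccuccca
miR-135a*: uAUAGGGAuuggagccguggcg

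miR-706 lies at chr6:120034290-120034311 on the minus strand, within the span of Wnk1, and miR-690 at chr16:28599940-28599961 on the minus strand, within Fgf12. miR-877* lies at chr17:35960731-35960752 on the minus strand, within Abcf1, and miR-135a* at chr9:106154179-106154200 on the plus strand, within the spans of Glyctk and the lncRNA D030055H07Rik. The gene table gives spans only, so exon and intron are not stated. miR-699, miR-709, miR-467a* and miR-801 also belong to this set and are named only.

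The second set holds miRNAs whose nuclear well was undetermined or whose nuclear CT was furthest above the cytoplasmic CT:
miR-34a: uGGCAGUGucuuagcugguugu
miR-106b*: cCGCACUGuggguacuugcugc
miR-10b: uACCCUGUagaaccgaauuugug
miR-425: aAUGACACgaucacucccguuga
miR-872*: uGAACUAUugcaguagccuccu
miR-20a*: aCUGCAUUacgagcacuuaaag
miR-652: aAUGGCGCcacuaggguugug

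miR-106b* (chr5:138165746-138165767, minus strand) lies within the span of Mcm7, miR-425 (chr9:108568789-108568811, plus strand) within Dalrd3, miR-872* (chr4:94665206-94665227, plus strand) within Ift74 and miR-652 (chrX:142739060-142739080, plus strand) within Tmem164. miR-10b (chr2:74726074-74726096, plus strand) lies within the spans of Hoxd3 and Hoxd4. No gene of the table other than the miRNA's own spans miR-34a (chr4:150068473-150068494, plus strand) or miR-20a* (chr14:115044219-115044240, plus strand).

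The third set is the miR-17 seed family, 6 miRNAs from 3 chromosomes that share the seed AAAGUGC and act on cell cycle and survival genes. It is shown as an example of miRNAs whose fraction difference lay near the common one, and let-7 is the other seed group of 6:
miR-17: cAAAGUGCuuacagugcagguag
miR-20a: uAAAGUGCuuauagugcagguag
miR-20b: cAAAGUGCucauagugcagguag
miR-106a: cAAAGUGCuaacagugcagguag
miR-106b: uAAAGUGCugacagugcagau
miR-93: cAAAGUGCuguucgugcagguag

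miR-17 (chr14:115043684-115043706) and miR-20a (chr14:115044183-115044205) lie on the plus strand of chromosome 14, in the miR-17-92 cluster. miR-20b (chrX:52742159-52742181) and miR-106a (chrX:52742541-52742563) lie on the minus strand of the X chromosome. miR-106b (chr5:138165787-138165807) and miR-93 (chr5:138165574-138165596) lie on the minus strand of chromosome 5 within Mcm7.

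LSK miRNAs were read at a higher CT, and so at a lower level, in nuclear than in cytoplasmic RNA with very few exceptions. The nuclear CT was higher for 104 of the 106 miRNAs and lower for 2, miR-699 and miR-706. Among all 123 assays under 30 in either fraction, named or not, 7.32% had the lower CT in nuclear RNA, including 7 unnamed assays. All 106 miRNAs had a cytoplasmic CT under 30, and 45 of them also had a nuclear CT under 30. The other 61 passed the limit through the cytoplasm alone, and none passed it through the nucleus alone. Just inside the limit, miR-99b had a cytoplasmic CT of 29.99 and a nuclear CT of 34.0. Just outside it, miR-142-5p had 30.08 and 34.9. In nuclear RNA, 54 miRNAs had a CT from 30 to under 35, 2 had a CT from 35 to under 40, and 5 were undetermined, which the table lists as 40.

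**Figure D1:**
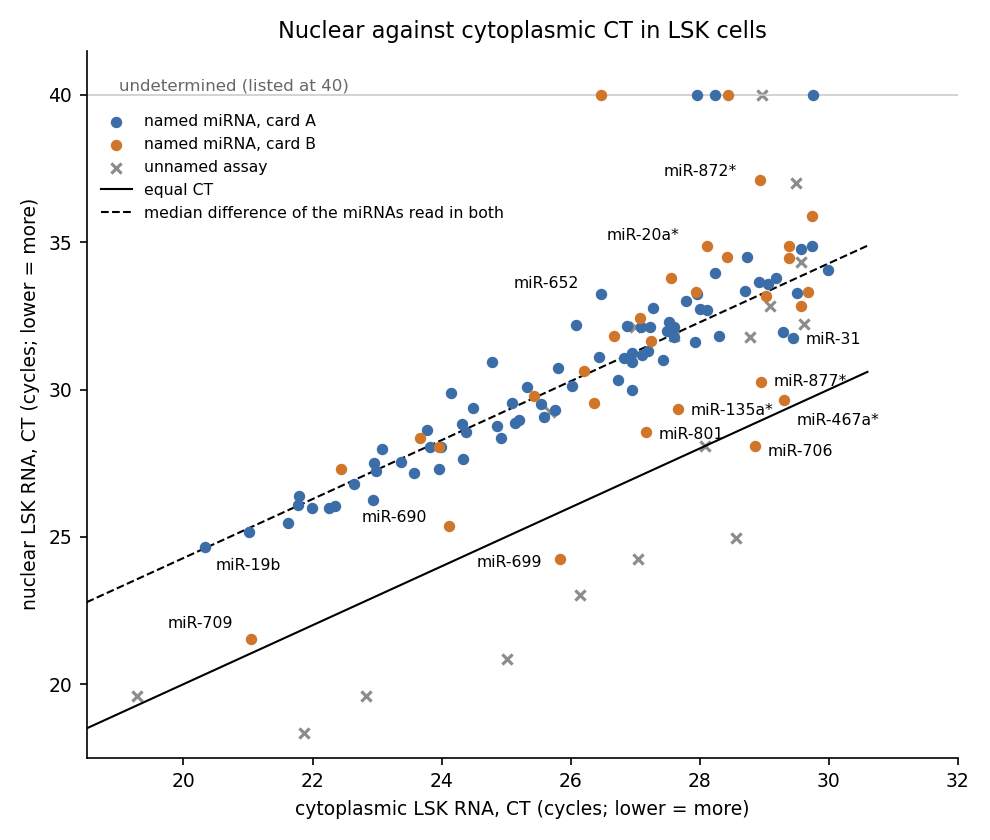
Nuclear CT (y axis, cycles) against cytoplasmic CT (x axis, cycles) in LSK RNA for the 106 named miRNAs, coloured by card, and 17 unnamed assays (crosses), 1 sample per fraction. The solid line marks equal CT and the dashed line the median difference of 4.28 cycles among the 101 miRNAs read in both fractions. 2 named miRNAs lie below the solid line, and most lie close to the dashed one.

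Over the 101 miRNAs read in both fractions, the nuclear CT exceeded the cytoplasmic CT by a median of 4.28 cycles, with the middle 50% between 3.70 and 4.90. This median is a 19.5-fold lower level in the nuclear sample, and the middle 50% runs from 13.0-fold to 29.8-fold. Whether these folds are per ng of RNA or per cell is not settled. With the 5 undetermined wells at 40, the median over the 106 miRNAs was 4.34 cycles. Over all 123 assays under 30 in either fraction it was 4.25 cycles. Of the 106 miRNAs, 98 differed by 2 cycles or more toward the cytoplasm, against 87.0% of the 123 assays.

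The difference varied little with the level of the miRNA. The 34 miRNAs with the lowest cytoplasmic CT (20.3 to 25.1) had a median difference of 4.16 cycles, the next 33 had 4.37, and the 34 with the highest CT (27.6 to 29.99) had 4.60. Across these 101 miRNAs, which share the same pair of samples, the nuclear CT followed the cytoplasmic CT with a slope of 1.05 and a Pearson correlation of 0.87. From such a correlation the paper proposes that low nuclear readings come mostly from slight contamination with cytoplasmic miRNAs. The part of this in the LSK differences was not tested here. Where the nuclear CT was under 30, in 45 miRNAs, they had a median difference of 3.97 cycles, and the 56 others read in both fractions had 4.69 cycles, a split that uses the nuclear CT itself.

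The miRNAs with the lowest CT in the cytoplasm were largely those with the lowest CT in the nucleus. Ranks across miRNAs carry the efficiency of each assay as well as the level. In cytoplasmic RNA the 10 lowest CTs were those of miR-19b (20.3), miR-17 (21.0), miR-709 (21.0), miR-191 (21.6), miR-222 (21.8), miR-223 (21.8), miR-106a (21.99), miR-16 (22.3), miR-92a (22.4) and miR-720 (22.4). In nuclear RNA the lowest were those of miR-709 (21.6), miR-699 (24.3), miR-19b (24.6), miR-17 (25.2), miR-690 (25.4), miR-191 (25.5), miR-106a (25.97), miR-16 (25.98), miR-92a (26.1) and miR-222 (26.1). The lists shared 8 of their 10 miRNAs, which is 80% of each list. miR-699 and miR-690 stood in the nuclear list only, and miR-223 and miR-720 in the cytoplasmic list only. miR-19b, a member of the miR-17-92 cluster, had the lowest cytoplasmic CT, and miR-709, which has been described in mouse liver nuclei, the lowest nuclear CT.

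A small set of miRNAs departed from the common difference toward the nucleus. The nuclear:cytoplasmic ratio used for this is 2 raised to the cytoplasmic minus nuclear CT, divided by 3, and it had a median of 0.0171 over the 101 miRNAs read in both fractions. It was over 0.1 for 8 of the 106 miRNAs, against 13.0% of all 123 assays under 30. Those 123 hold the 106 miRNAs themselves and 17 unnamed assays. The basis of the divisor is not stated in the sources used here, and without it the count was 14 of the 106, against 19.5% of the 123. The lowest of these 8 ratios was 0.104 and the next below the limit was 0.0673. All 8 were on card B, which held 30 of the 106 miRNAs.

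miR-699 had a cytoplasmic CT of 25.8 and a nuclear CT of 24.3, a difference of -1.57 cycles and a ratio of 0.992. It ranked 42nd by level in cytoplasmic RNA and 2nd in nuclear RNA. The entry has since been removed from miRBase, the miRNA registry, so what its assay reads is not settled. miR-706 had 28.9 in cytoplasmic and 28.1 in nuclear RNA, a difference of -0.77 cycles and a ratio of 0.570, and moved from rank 87 to rank 25. These are the only miRNAs of the 106 whose raw nuclear CT was the lower one.

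miR-467a*, one of the hairpin arms encoded in an intron of the imprinted gene Sfmbt2, had a cytoplasmic CT of 29.3 and a nuclear CT of 29.7, with a ratio of 0.260. miR-709 was read at 21.0 and 21.6, with a ratio of 0.236, and ranked 3rd in the cytoplasm and 1st in the nucleus. Thus miR-709 was abundant in both fractions, whereas miR-467a* was near the CT limit of 30 in both. miR-690 had 24.1 in cytoplasmic and 25.4 in nuclear RNA, with a ratio of 0.142.

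The other 3 were nearer to the limit. miR-877* was read at 28.9 and 30.3 with a ratio of 0.134, and it is the only one of the 8 with a nuclear CT over 30. miR-801, whose sequence is a piece of the U11 spliceosomal RNA and which was removed from miRBase, was read at 27.2 and 28.5 with a ratio of 0.128. miR-135a* was read at 27.7 and 29.3 with a ratio of 0.104. Between these and the remaining miRNAs, the difference stepped from 1.67 cycles for miR-135a* to 2.31 cycles for miR-31 and 2.68 cycles for miR-301a.

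The spread of the fraction difference was not alike on the 2 cards. On card A the 73 miRNAs read in both fractions had a median difference of 4.27 cycles with an SD of 0.80, and a range from 2.31 to 6.75. On card B the 28 miRNAs had a median of 4.38 cycles with an SD of 2.40, and a range from -1.57 to 8.16. The medians of the cards thus lay 0.11 cycles apart while the SD was about 3 times as large on card B, which carries both the lowest and the highest differences. The gap between the medians has no settled direction. With a limit on the nuclear CT only, card B minus card A was -2.52 cycles. The cards hold different miRNAs, so card and miRNA cannot be told apart.

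Among the 17 unnamed assays under 30 in either fraction, 7 had a lower nuclear CT, and 6 of these were lower by 2.79 to 4.15 cycles. These 6 lay further toward the nucleus than any of the 106 miRNAs. The array carries small nuclear and nucleolar RNA controls, but the table does not tie a name to these assays, and they were not used as controls here.

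At the other end, 5 miRNAs under 30 in the cytoplasm were undetermined in nuclear LSK RNA, against 4.88% of all 123 assays. miR-466d-3p, also of the Sfmbt2 cluster, had the lowest cytoplasmic CT of the 5, 26.5, and a whole cell CT of 27.5. It was undetermined in both fractions of the 3 later stages, yet its whole cell CT in granulocytes was 25.6, so its wells did not follow each other from sample to sample. miR-425 had a cytoplasmic CT of 27.96 in LSK cells. It was undetermined in nuclear RNA of LSK cells and myelocytes but was read at 32.2 in promyelocytes and 30.46 in granulocytes.

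miR-10b, encoded in the HoxD cluster, had a cytoplasmic CT of 28.2 and was undetermined in nuclear RNA of all 4 stages. miR-106b* had 28.4 in LSK cytoplasm and was undetermined in nuclear RNA of LSK cells, promyelocytes and myelocytes, with 34.1 in granulocytes. miR-34a, a target of p53, had 29.8 in LSK cytoplasm, and its nuclear CT was below 40 in granulocytes only (34.8). In whole LSK cells miR-34a and miR-106b* were read at 33.1 and 33.2, which is 3.38 and 4.78 cycles above their cytoplasmic CT.

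Of the miRNAs read in both fractions, miR-872* had the widest difference, 8.16 cycles, with a cytoplasmic CT of 28.9 and a nuclear CT of 37.1. miR-20a* followed with 6.77 cycles (28.1 and 34.9) and miR-652 with 6.75 cycles (26.5 and 33.2). The next were miR-15b* (6.24), miR-15a* (6.16), miR-126-5p (6.15), miR-21 (6.11), miR-149 (6.08), miR-340-3p (5.78) and miR-150 (5.75). Of these 10, only miR-150, a regulator of Myb in lymphoid cells, had a nuclear CT under 30 (29.9). miR-21 ranked 44th in the cytoplasm and 72nd in the nucleus, and miR-126-5p 30th and 52nd.

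The groups of miRNAs with known roles in blood cells lay close together around the common difference. Each group is given by its median over members read in both fractions, beside the 4.28 cycles of all 101. The 6 miRNAs of the miR-17-92 cluster, which promotes progenitor growth, had a median of 4.23 cycles with miR-92a lowest at 3.70 and miR-18a highest at 4.60. The 5 members that could be named, of 7, of the paralog clusters on chromosomes 5 and X had 4.06 cycles, from 3.54 for miR-20b to 4.90 for miR-93. The 6 let-7 miRNAs under 30, of 7 that could be named and 9 listed, which restrain growth genes such as Lin28 and Hmga2, had 4.23 cycles, from 3.33 for let-7e to 4.59 for let-7a. All 17 of these miRNAs are on card A, where none of the 76 miRNAs had a ratio over 0.1.

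The miR-15/16 group, which acts on Bcl2 and cyclins, had a median of 3.92 cycles over 4 of its 6 members. Here miR-16 was read at 22.3 in cytoplasmic and 25.98 in nuclear RNA, and miR-15b at 25.6 and 29.1. The miR-30 group had 4.22 cycles over 5 members, the miR-26 pair 4.34 cycles and the miR-29 pair 4.12 cycles. The miR-23/24/27 group had 4.72 cycles over 3 of the 4 members that could be named, with miR-24 at 3.30 and miR-27a and miR-27b at 4.72 and 4.74.

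The 8 stem cell linked miRNAs that could be named, of 11 listed, were all under 30 and include the progenitor markers used above. They had a median of 4.17 cycles over the 7 read in both fractions. miR-196b, encoded in the HoxA cluster, was read at 25.1 in the cytoplasm and 28.9 in the nucleus, a difference of 3.72 cycles. miR-125b-5p differed by 3.99 cycles and its relative miR-125a-5p by 4.89 cycles. miR-126-3p, which restrains stem cell cycling, was read at 23.1 and 27.99, a difference of 4.91 cycles. miR-126-5p from the same hairpin differed by 6.15 cycles, and miR-10b is the member undetermined in the nucleus.

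The inflammatory miRNAs were further apart from each other. miR-155 was read at 24.9 and 28.4, a difference of 3.43 cycles, miR-146a at 23.8 and 28.6, a difference of 4.86 cycles, and miR-21 at 26.1 and 32.2, a difference of 6.11 cycles. miR-221 and miR-222, which act on the Kit receptor that defines LSK cells, differed by 5.28 and 4.31 cycles. miR-223, the myeloid miRNA, was read at 21.8 and 26.4, a difference of 4.59 cycles.

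**Figure D2:**
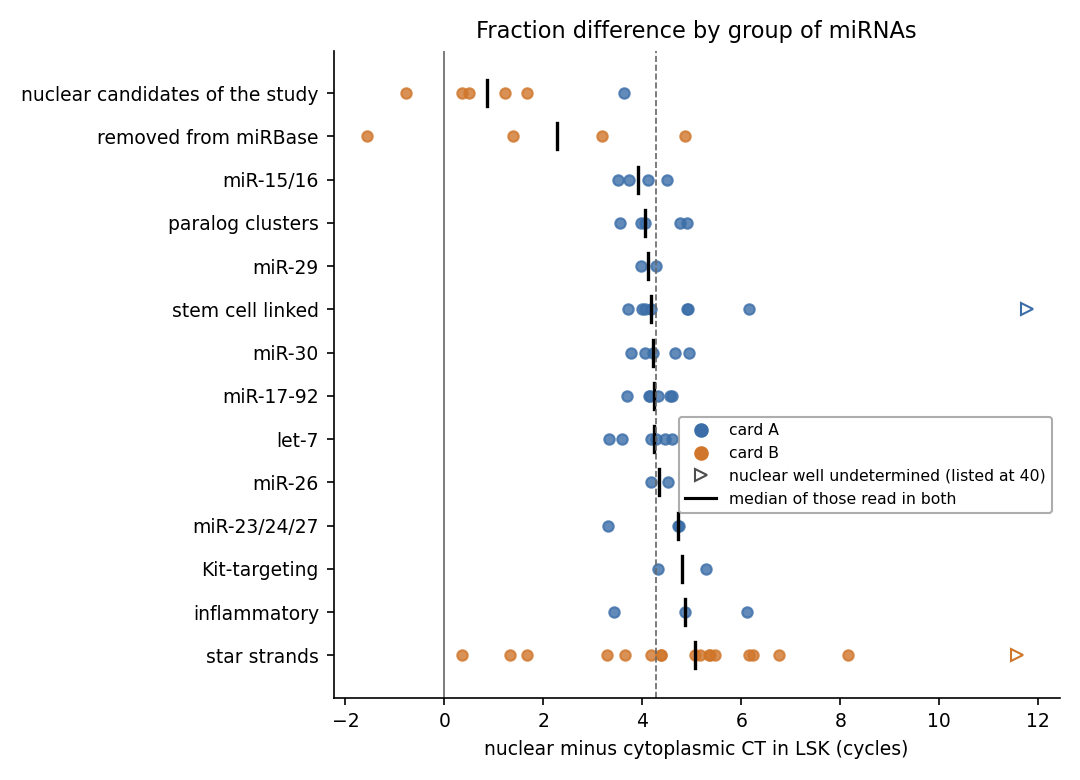
Nuclear minus cytoplasmic CT in LSK RNA (x axis, cycles) for the members of 14 groups of miRNAs (y axis), 1 sample per fraction. Points are single miRNAs coloured by card, open triangles have an undetermined nuclear well listed at 40, the short black bar is the group's median over those read in both fractions, and the dashed line is the median of all 101, 4.28 cycles. The groups in the 2 top lines have medians of 0.87 and 2.28 cycles, and the medians of the other 12 lie between 3.92 and 5.07. The Sfmbt2 group, with 1 miRNA read in both fractions, is not drawn.

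The 6 miRNAs that the study picked as nuclear candidates (miR-706, miR-709, miR-690, miR-467a*, miR-135a* and miR-142-3p) had a median difference of 0.87 cycles, and 5 of the 6 had a ratio over 0.1. That list was chosen on these samples, so its direction is not independent evidence. The sixth, miR-142-3p, a miRNA expressed across blood cells, was read at 23.6 in cytoplasmic and 27.2 in nuclear RNA. Its difference of 3.62 cycles lay just below the middle 50% of the 101 miRNAs, which begins at 3.70 cycles, and its ratio was 0.0271. The study also ran individual RT-qPCR assays of the 6, which were not analysed here. It reported miR-706, miR-709 and miR-690 as nuclear-enriched in all 4 stages, against cytoplasmic control miRNAs. It reported miR-467a* as enriched only in LSK cells and promyelocytes, and miR-135a* and miR-142-3p in none of the stages.

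Of the 7 named entries since removed from miRBase, 4 were under 30. miR-699 and miR-801 had ratios over 0.1, as above. miR-805, a piece of a mitochondrial transfer RNA, differed by 3.18 cycles, and miR-720, a piece of a transfer RNA, by 4.85 cycles. Only 2 of the 12 named assays of the Sfmbt2 cluster were under 30, and they took opposite ends, miR-467a* at 0.36 cycles and miR-466d-3p undetermined in the nucleus.

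The 17 star strands read in both fractions, all on card B, had a median difference of 5.07 cycles. The 84 other miRNAs of both cards had 4.24 cycles. The 11 of these on card B had 3.18 cycles, and 5 of the 11 (miR-699, miR-706, miR-709, miR-690 and miR-801) are among the miRNAs with a ratio over 0.1 already described. The star strands were wide apart among themselves, from 0.36 cycles for miR-467a* to 8.16 cycles for miR-872*, and 3 of the 8 miRNAs with a ratio over 0.1 are star strands. Of the 18 star strands under 30, counting the undetermined one, only 3 had a nuclear CT under 30. These were miR-467a*, miR-135a* and miR-93*, at 0.36, 1.67 and 4.37 cycles. The others passed the limit through the cytoplasm alone, a choice that favours a wide difference. The part of this choice in the median of 5.07 cycles was not tested.

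Arms of the same hairpin come from 1 primary transcript and so give a comparison within a precursor. Both arms were under 30 for 12 hairpins. In 8 of the 12 the arm with the higher cytoplasmic CT also had the larger fraction difference. Leaving out the hairpins with an undetermined arm, this held for 7 of 10. The difference of the arm with the higher cytoplasmic CT minus that of the other arm ran from -3.04 to 2.73 cycles over these 10, with a median of 0.90. Without regard to sign, the median gap was 1.31 cycles.

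In the miR-20a hairpin, miR-20a differed by 4.15 cycles between fractions and miR-20a* by 6.77. In the miR-15b hairpin the values were 3.50 for miR-15b and 6.24 for miR-15b*, and in the miR-106b hairpin 4.76 for miR-106b while miR-106b* was undetermined in the nucleus. The miR-30e, miR-340 and miR-126 hairpins had smaller gaps between arms of 1.39, 1.53 and 1.23 cycles.

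The opposite order was found in 4 hairpins. miR-425 was undetermined in the nucleus although miR-425* differed by only 3.28 cycles, and miR-872* differed by 8.16 cycles against 5.12 for miR-872, which was the arm with the higher cytoplasmic CT. miR-93 and miR-93* differed by 4.90 and 4.37 cycles, and miR-130b* and miR-130b by 5.34 and 5.22. In 10 of the 12 hairpins the arms were on different cards, so arm and card cannot be told apart there. Both arms of miR-126 and of miR-340 were on card A.

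The order of the arms varied by stage. Of the 10 hairpins with both arms read in both LSK fractions, the arm with the higher LSK cytoplasmic CT had the larger difference in 5 of 10 in promyelocytes, in 5 of the 8 that could be compared in myelocytes, and in 7 of 10 in granulocytes.

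**Figure D3:**
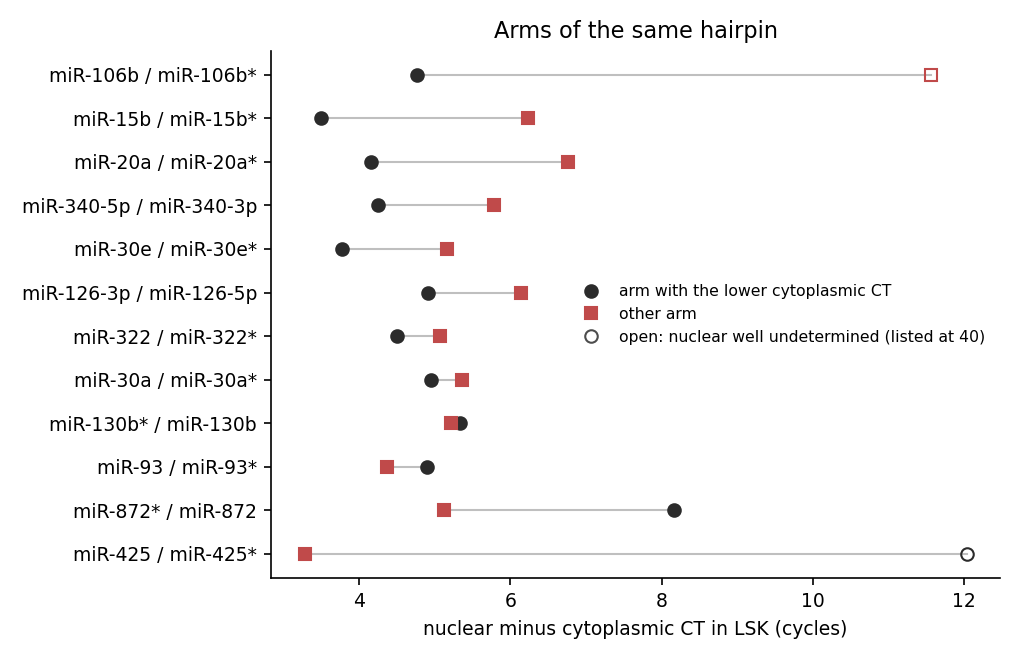
Nuclear minus cytoplasmic CT in LSK RNA (x axis, cycles) for both arms of 12 hairpins (y axis), 1 sample per fraction. Circles mark the arm with the lower cytoplasmic CT and squares the other arm, and open symbols have an undetermined nuclear well listed at 40. The square lies to the right of the circle in 8 of the 12 hairpins.

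Whole cell RNA of LSK cells gives a further reading of each miRNA. For 100 of the 101 miRNAs read in all 3 samples the whole cell CT was higher than the cytoplasmic CT, against 93.2% of all 117 assays read in all 3. The median of whole cell minus cytoplasmic CT was 1.43 cycles with an SD of 0.62. For 94 of the 101 the whole cell CT lay between the 2 fractions. miR-19b, for example, was read at 20.3 in cytoplasmic, 21.8 in whole cell and 24.6 in nuclear RNA, and miR-126-3p at 23.1, 24.3 and 27.99.

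For 6 of the 101 miRNAs the whole cell CT was above both fractions, a share near the 5.98% of the 117 assays. These were miR-690, miR-699, miR-801, miR-709, miR-467a* and miR-706. A whole cell CT above both fractions needs a fraction difference smaller than the whole cell offset, so this count is tied to the ratio and is no separate observation of it. Their whole cell CT exceeded the cytoplasmic CT by 0.67 cycles for miR-699, 0.74 for miR-709, 1.97 for miR-706, 2.10 for miR-467a*, 2.76 for miR-690 and 3.63 for miR-801. Against the common offset of 1.43 cycles, miR-690 and miR-801 lay over 1 cycle above the common offset, while miR-699 and miR-709 lay below it. For the 2 other miRNAs with a ratio over 0.1 the whole cell CT lay between the fractions, at 29.7 for miR-877* and 28.3 for miR-135a*. miR-31 was the only miRNA with a whole cell CT below both fractions (28.7, against 29.4 in the cytoplasm).

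**Figure D4:**
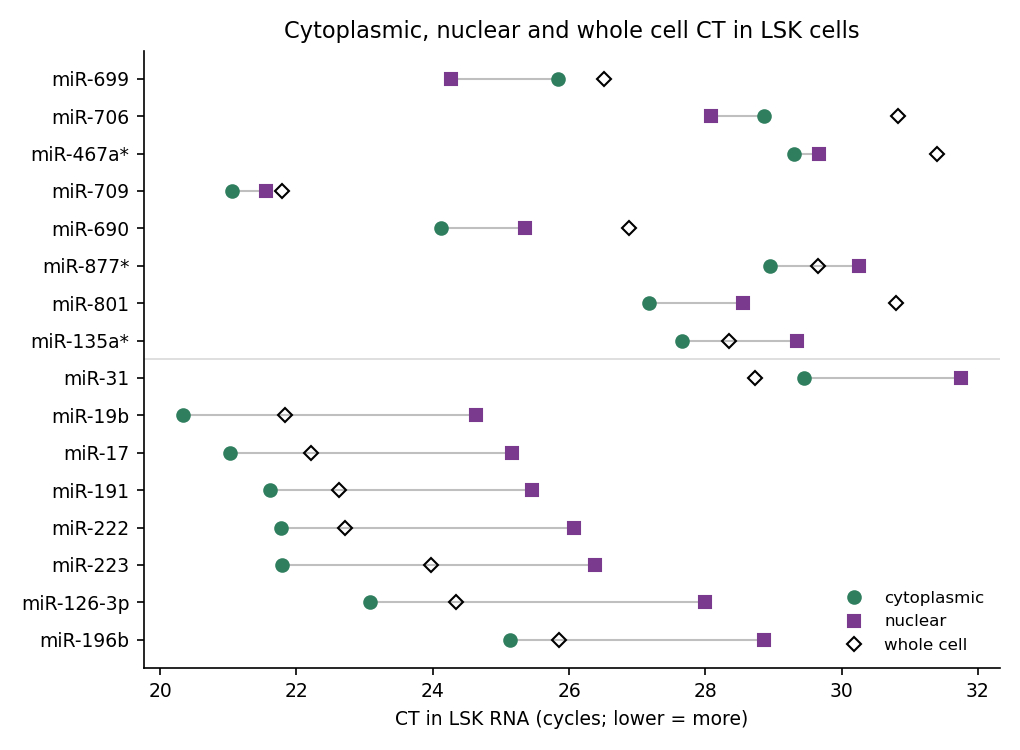
CT in LSK RNA (x axis, cycles) in the cytoplasmic, nuclear and whole cell sample for 16 miRNAs (y axis), 1 sample each. The 8 miRNAs above the grey line have a ratio over 0.1, and 6 of them have a whole cell CT to the right of both fractions. Below it stand miR-31, with the whole cell CT to the left of both, and 7 abundant or progenitor miRNAs whose whole cell CT lies between the fractions.

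The fraction difference was also set beside that of the later stages. The miRNAs were chosen by their CT in LSK RNA, most of them through the cytoplasmic sample, a choice that favours a wide difference in LSK cells. Of the miRNAs, 89 were read in both fractions of all 4 stages. The median of their differences, in order of maturation, was 4.31 cycles for LSK cells, then 2.88, 3.90 and 2.54 for the later stages. As folds toward the cytoplasm these medians are 19.8, 7.34, 14.9 and 5.83. The difference was largest in LSK cells for 52 of the 89 miRNAs, against 53.5% of the 101 assays, named or not, that were read everywhere, and the next stage by this count was the myelocyte with 30, against 30.7% of the 101. Each later stage had a smaller difference than LSK cells for most of the 89, namely 81 of them in the promyelocyte samples, 55 in the myelocyte and 83 in the granulocyte samples. Over the 101 assays read everywhere these shares were 90.1%, 58.4% and 86.1%, near those of the miRNAs.

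Over the 72 named miRNAs with a cytoplasmic CT under 30 in every stage and a reading in every nuclear sample, a choice that does not single out LSK cells, the medians were 4.28, 2.86, 3.91 and 2.54 cycles, and the difference was largest in LSK cells for 45, against 57.5% of the 80 assays, named or not, that met the same rule.

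The whole cell offset moved with the stage too. Whole cell minus cytoplasmic CT had a median of 1.43 cycles in LSK cells and of -0.61, -0.14 and -0.51 in the later stages, from promyelocytes on. LSK cells were the only stage with a median above 0. The median CT of the 89 miRNAs in cytoplasmic RNA was 26.4 in LSK cells and 27.9, 26.7 and 26.6 later, and in nuclear RNA it was 30.1, 30.7, 30.52 and 28.9. The study checked fraction purity by RT-qPCR of a nuclear and a cytoplasmic RNA and by western blot, and those values were not used here. The part of RNA input and fraction purity in these differences between stages was not tested. Members were therefore also compared after subtracting each stage's median.

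The 8 miRNAs with a ratio over 0.1 were picked by their LSK values, a choice that favours a low difference in LSK cells over the later stages. Of these 8, all but miR-877* had a difference below the stage median in each later stage as well. In order of maturation, miR-706 had -0.77, -2.50, 0.18 and 1.01 cycles. Likewise miR-467a* had 0.36, -1.94, 1.28 and 2.39 cycles, and miR-709 had 0.50, -0.34, 1.52 and 0.45. The raw difference of these 3 was lowest in promyelocytes. After subtraction of the stage medians this held for miR-706 (-5.38 in promyelocytes against -5.08 in LSK cells) and miR-467a* (-4.81 against -3.95), but miR-709 was lowest in LSK cells (-3.81 against -3.22).

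In raw cycles miR-699 and miR-877* had their lowest difference in LSK cells. For miR-699 it was -1.57 cycles there, against 0.21, 2.04 and 2.04 in the later stages. Relative to the stage medians, its difference in LSK cells less the mean of the other 3 stages was -4.20 cycles, the widest gap of the 89 miRNAs. miR-690 had 1.23, 0.18, 1.59 and 2.02 cycles and miR-801 had 1.38, 0.15, 1.25 and 0.89. miR-135a* had 1.67, 1.24, 1.37 and 0.46 cycles. After subtraction of the stage medians, these 3 were lowest in LSK cells, at -3.07 for miR-690, -2.93 for miR-801 and -2.63 for miR-135a*, with the next stage close by at -2.69, -2.72 and -2.52. miR-877* had 1.32 cycles in LSK cells, 2.14 in promyelocytes and 3.41 in granulocytes, the last above that stage's median, and its nuclear well was undetermined in myelocytes.

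**Figure D5:**
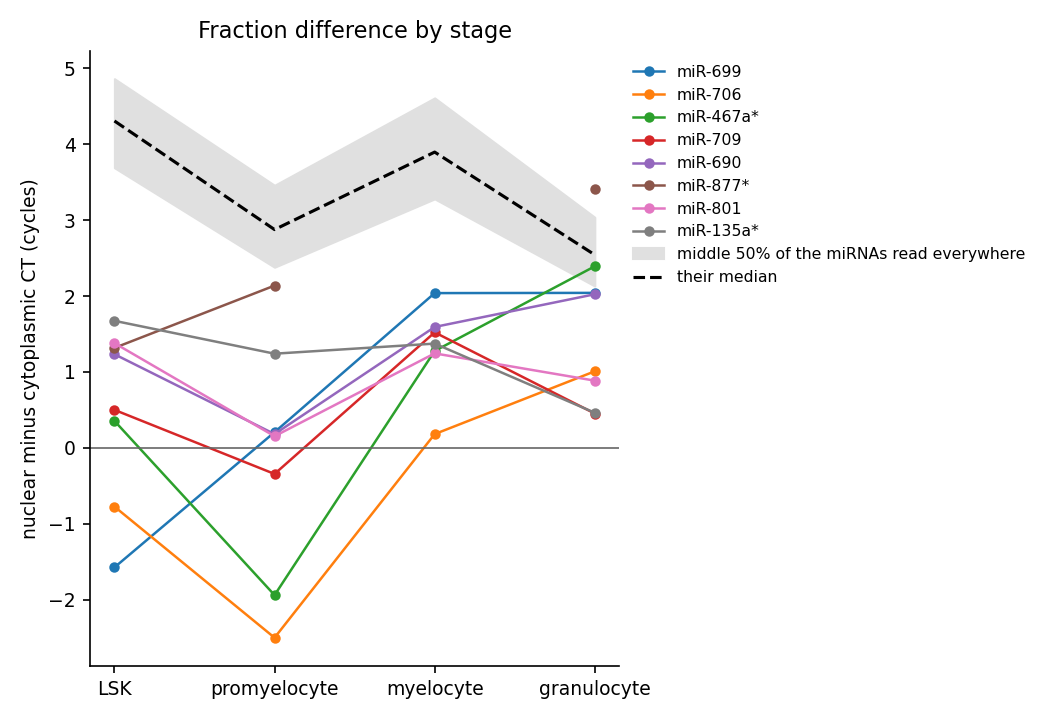
Nuclear minus cytoplasmic CT (y axis, cycles) by stage (x axis) for the 8 miRNAs with a ratio over 0.1 in LSK RNA, 1 sample per stage and fraction. The dashed line and grey band are the median and middle 50% of the 89 miRNAs read everywhere, with medians from 2.54 to 4.31 cycles. miR-877* has no point in myelocytes, where its nuclear well was undetermined, and lies above the band in granulocytes.

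After miR-699, the miRNAs furthest below in LSK cells once the stage medians were subtracted were miR-20b (-1.81 cycles), miR-24-2* (-1.79), miR-706 (-1.54) and miR-467a* (-1.42). Relative to the stage medians, nuclear miR-20b was thus closer to its cytoplasmic level in LSK cells. Its raw difference was 3.54 cycles there against 3.79, 5.56 and 3.08 later, where its nuclear CTs were 30.8, 33.97 and 31.9. Furthest above were miR-872 (2.11), miR-15a* (1.84), miR-30a* (1.57), miR-130b (1.51) and miR-27a (1.49). The nuclear CTs of miR-24-2*, miR-15a*, miR-30a* and miR-130b were above 30 in every stage. miR-872 had 5.12, 0.52, -0.11 and 5.02 cycles from LSK cells to granulocytes, with CTs of 29.7 or above in all of these wells. miR-27a had 4.72 cycles in LSK cells and 0.68, 3.25 and 2.15 later.

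Shared sequence features of the miRNAs were compared with the fraction difference as a description. Of the 84 miRNAs with a sequence, 39 fell into 14 groups that share a seed. Members of 1 seed group share the bases that select targets but come from different loci. The 6 miRNAs with seed AAAGUGC shown above differed by 3.54 to 4.90 cycles, a span of 1.35 cycles. The 6 let-7 miRNAs with seed GAGGUAG spanned 1.26 cycles and the miR-15/16 group with seed AGCAGCA spanned 1.0 cycles. miR-27a and miR-27b lay 0.02 cycles apart and miR-19a and miR-19b 0.24 cycles. The widest span was 2.54 cycles, in the group AGUGCAA, from 2.68 for miR-301a to 5.22 for miR-130b.

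Base composition was compared with the difference over the 80 miRNAs that had a sequence and were read in both fractions. The 45 with a GC share at or below the median of 45.5% and the 35 above it both had a median difference of 4.31 cycles. On card B alone the values were 5.25 cycles for the 10 with the lower and 4.17 cycles for the 9 with the higher GC share. Card A went the other way, with 4.26 cycles for 32 and 4.31 for 29. The Pearson correlation with GC share was -0.028 over both cards and -0.078 on card B. The 40 miRNAs with the lower share of A and G had 4.51 cycles and the 40 with the higher share 4.17, with a Pearson correlation of -0.23 across miRNAs. On card B alone they were 5.41 cycles for 10 miRNAs and 3.65 cycles for 9, and on card A 4.38 for 32 and 4.17 for 29. These points share the same pair of samples and differ in card.

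The hexamer AGUGUU, which has been described as a nuclear import signal of miRNAs, was searched on the miRNA strand and was in none of the 80 sequences. It is in 0.715% of the 1679 mature mouse sequences of the RefSeq table. At least 1 of the tetramers AGUG or AGUC, or else ACUG or ACUC, was in 36 of the 80, or 45.0%, against 33.8% of all mature sequences, and the first of them overlaps the hexamer. The 36 miRNAs with a tetramer had a median difference of 4.54 cycles and the 44 without one 4.14 cycles. The 4 sequences shown for the set with a high nuclear share hold none of these motifs.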

How the data were processed

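TaqMan array CT values of 12 samples were used as the authors deposited them, as other values without normalization. The authors ran cards A and B on an ABI 7900HT and called CTs with SDS and RQ Manager software. Numbered assays were named by unique matches of all nuclear and cytoplasmic CTs to the values printed in Additional file 5 (within 0.0005 cycles, 246 assays), then of whole cell differences to Additional file 1 (within 0.002, 23 assays). Card was read from the decimals and place of an assay in the table. The divisor of 3 is that of the printed ratios, and its basis is not stated in the sources used here. The labels give 100 ng of RNA per reaction, whereas the study describes cell equivalent volumes, so whether a ratio is per ng or per cell is not settled. All 12 data columns were read.

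The miRNAs, groups and rules were chosen with earlier results of these data known. Named miRNAs are the 10 smallest and 10 largest differences, the 10 lowest CTs of each fraction, undetermined ones, group members, arm pairs, and up to 5 stage gaps each way. The alternatives varied the CT limit, ratio limit, divisor, naming and undetermined wells. The counting steps were tested on simulated data. Sequences and gene spans come from RefSeq (GRCm38.p6). Python 3.11.15, numpy 2.4.6 and pandas 2.3.3 were used. Individual RT-qPCR assays and mRNA arrays were not analysed here.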

Additional observations from a re-analysis of the deposited data

Results flagged for a closer look

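For 5 miRNAs the direction of the fraction difference in LSK cells was opposite to that in another stage, with 1 sample per stage and fraction, so the difference between stages was not tested. miR-699 had -1.57 cycles in LSK cells and 0.21, 2.04 and 2.04 in promyelocytes, myelocytes and granulocytes. miR-706 had -0.77 cycles in LSK cells and was above 0 in myelocytes (0.18) and granulocytes (1.01). miR-467a* had 0.36 cycles and miR-709 had 0.50 cycles in LSK cells, and both were below 0 in promyelocytes (-1.94 and -0.34). miR-872 had 5.12 cycles in LSK cells and -0.11 in myelocytes, where it was read at 33.5 in cytoplasmic and 33.4 in nuclear RNA.

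Assays without a name also carried signal. In LSK RNA 7 of the 17 unnamed assays under a CT of 30 had a lower nuclear than cytoplasmic CT. For the 6 that were lower by more than 1 cycle, the median of nuclear minus cytoplasmic CT was -3.38 cycles in LSK cells, -6.10 in promyelocytes, -3.04 in myelocytes and -1.14 in granulocytes.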

How the results depend on the processing

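No paired analysis was possible because each fraction of LSK cells is 1 sample and no test was made. Of 46 alternatives, 15 left a count within 1.5 times or a median unchanged at 2 decimals.

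The count of 2 miRNAs with a lower nuclear CT was 1 with a CT limit of 28, 11 with a limit of 35, 9 over all assays, 1 without entries removed from miRBase, 1 when the nuclear CT had to be lower by 1 cycle and 0 with the nuclear CT raised by log2 of 3 (1.58 cycles). The count of 8 with a ratio over 0.1 was 5, 13 and 26 with CT limits of 28, 32 and 35, 16 over all assays, 14 without the divisor and 4 with a ratio limit of 0.2. With 4 times the median ratio of each card as the limit it was 8, and all of these also had a ratio over 0.1. The count of 5 undetermined was 2, 14 and 54 with CT limits of 28, 32 and 35.

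The median difference of 4.34 cycles was 4.27, 4.22 and 4.51 with CT limits of 28, 32 and 35, 3.97 with a limit on the nuclear CT only, 4.25 over all assays, 4.38 without removed entries, 4.22 with names from Additional file 5 only and 4.28 without undetermined miRNAs.

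The card B minus card A median of 0.11 cycles was 0.15 with a CT limit of 28, 0.26 without removed entries and 0.043 with names from Additional file 5 only. It turned to -0.071 and -0.27 with CT limits of 32 and 35, -2.52 with a limit on the nuclear CT only and -0.094 over all assays, so it has no settled direction. A limit on the nuclear CT keeps few miRNAs of card B other than those with a high nuclear level. CTs above 30 rest on few template molecules, and with 1 well per assay their error is unknown. The LSK median less that of myelocytes, the next stage, was 0.41 cycles and became 0.36 over the 72 miRNAs with a cytoplasmic CT under 30 in every stage, an alternative chosen after seeing the data.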
